A study of Homo sapiens with 8 samples.

Results

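Interleukin 11 (IL11), interleukin 6 (IL6), leukaemia inhibitory factor (LIF) and cardiotrophin-like cytokine factor 1 (CLCF1) are secreted proteins that signal through a shared receptor chain, gp130, encoded by IL6ST. The set described here holds these ligands, the receptor chains IL6ST, LIFR, OSMR and IL11RA, the transcription factor STAT3 and its feedback inhibitor SOCS3, 10 genes in all, of which 9 are among the 19775 genes named on the array. The set was built around IL11 and chosen by pathway with the soft against stiff results of these same arrays known, IL11 being among the genes that differed most. The differences of the members between the substrates are therefore a description. Their intervals and their place against the threshold used for all genes describe size and spread, are no independent test, and are given without p-values. A probe set is a group of short probes on the array that together read 1 transcript region, and a member was read by every probe set whose only symbol in the platform annotation was that gene. This gave 29 probe sets for 9 of the 10 members, and CLCF1 was not analysed here.

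The arrays were hybridised with total RNA of MDA-MB-231, an established human breast cancer line with mesenchymal features, grown in DMEM/F12 with serum. Cells stayed for 2 days on a substrate labelled stiff (4 arrays, A to D) or soft (4 arrays, A to D), and the sources used here give no stiffness value. The labels call them biological replicas but name no separate cultures, so p-values measure only the spread between these arrays, which may be technical. Levels are log2 RMA values, in which a difference of 1 is a doubling, and they are not compared between probe sets because probes differ in brightness. Differences are soft minus stiff with the standard error (SE) of the limma fit. A probe set was counted as past the threshold at an adjusted p under 0.05 over all 54613 probe sets, and as above background where a group mean exceeded 6.188, the 95th percentile of genes taken as silent in breast cells. Of 15 such silent genes 2 exceeded it themselves. SFTPC, 1 of them, stood at 7.55 on stiff and 7.62 on soft, above the means of IL6 and IL11RA. Passing this level therefore does not by itself show expression.

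In this pathway a ligand binds its own receptor chain, such as IL11RA for IL11 or LIFR for LIF, and the complex takes in gp130. Janus kinases bound to the receptors then phosphorylate STAT3, which enters the nucleus and switches on target genes, among them SOCS3, whose product shuts the receptor down. In breast cancer IL11 is known for its part in bone metastasis, where it promotes bone resorption, and IL6 for autocrine growth signals.

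The stretches before the transcription start of IL11 and IL6 are shown because IL11 was lower on soft, while IL6 stood higher by 0.29 without passing the threshold. A link between these letters and the differences was not tested. They are 250 bases long, from RefSeq on GRCh38.p14, at chr19:55370464-55370713 on the minus strand for IL11 and chr7:22726950-22727199 on the plus strand for IL6. Capitals mark TGAGTCA, the core letters bound by AP-1, searched on both strands.
IL11: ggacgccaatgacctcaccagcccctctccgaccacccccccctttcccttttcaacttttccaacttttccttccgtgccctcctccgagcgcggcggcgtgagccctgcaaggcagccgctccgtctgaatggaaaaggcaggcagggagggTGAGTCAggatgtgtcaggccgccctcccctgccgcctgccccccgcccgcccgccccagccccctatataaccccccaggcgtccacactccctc
IL6: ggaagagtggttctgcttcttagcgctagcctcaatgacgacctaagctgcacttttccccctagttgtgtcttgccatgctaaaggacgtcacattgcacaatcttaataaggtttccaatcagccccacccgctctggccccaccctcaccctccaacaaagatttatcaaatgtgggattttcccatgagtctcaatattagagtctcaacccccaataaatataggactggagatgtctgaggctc
IL11 held the letters 1 time, starting 96 bases before the start, and IL6 did not hold them in this window. RefSeq gave 12 such windows for 8 members, and the IL11 window was the 1 of them with these letters, against 4.2% of all 35116 windows of this length. The letters TTCNNNGAA, bound by STAT factors and searched on both strands, lay in 2 of the 12 windows, both of LIFR, starting 182 and 165 bases before the start, against 6.57% of all windows. A match describes letters only.

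Arrays correlated with each other at 0.9932 to 0.9982, and none were identical. Stiff A and B lay apart from stiff C and D on the second principal component, which held 16.4% of the variance, so member values are also given against each of these pairs of arrays. The markers VIM, CD44, AXL, CAV1 and MSN of mesenchymal-like cells all stood well above background, with means from 13.0 to 14.6, with AXL lower on soft (-0.23, limma adjusted p = 0.0318). Of 7 luminal markers 4 were above background and none passed the threshold, with log2 levels that summed to 44.47 to 45.03 for stiff and 44.32 to 44.70 for soft. EPCAM stood at 9.88, while the epithelial cadherin CDH1 (4.29 on stiff) and the progesterone receptor PGR (3.62) were under background. None of 3 leukocyte markers measured was above background, and their sums were 14.77 to 15.73 for stiff and 15.13 to 15.92 for soft. Fibroblast markers summed to 26.64 to 27.51 on stiff and 26.65 to 27.68 on soft, with 2 of 5 above background, and endothelial markers to 21.98 to 23.15 and 22.63 to 23.24, with 1 of 4 above it, PECAM1, which differed by 0.49 (SE 0.0694, limma adjusted p = 0.00211). Its other probe sets above background differed by 0.24 and 0.28 with overlap, not past the threshold (limma adjusted p = 0.157 and 0.156). CDH5, an endothelial cadherin, stood at 4.22. The part of other cells in the member values was not tested.

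IL11 was lower on soft in every array and at both of its probe sets, while the other measured ligands, IL6 and LIF, were at or above their stiff levels. Among the receptors IL6ST and IL11RA were higher on soft at some probe sets, and LIFR, OSMR, STAT3 and SOCS3 differed little. With each gene read by its probe set with the highest mean, 1 of the 9 measured members passed the threshold as lower, against 5.93% of all genes, and 1 as higher, against 4.39% of all genes. Of the 29 probe sets 2 passed as lower, where 4.63% of all probe sets did, and 3 as higher, where 4.64% did. Soft and stiff values were fully separate for 4 of the 9 members, against 19.9% of all genes. All 9 members were above background at these probe sets, as were 11566 of the 19775 genes. Shares among genes above background alone were not computed, so these counts cannot be called an excess. The median difference of the 9 members was 0.12, and that of all genes was 0.0075.

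IL11 was read by 206924_at and 206926_s_at, both above background. At 206924_at stiff A to D stood at 9.53, 9.50, 9.79 and 9.72, and soft A to D at 8.45, 8.44, 8.70 and 8.46. Every soft array lay below every stiff array. The means were 9.635 ± 0.142 on stiff and 8.51 ± 0.125 on soft (SD, n = 4 each), a difference of -1.12 (SE 0.0875, 95% confidence interval -1.31 to -0.93), or 2.18-fold. At 206926_s_at stiff A to D read 7.54, 7.54, 7.86 and 8.00, and soft A to D 6.49, 6.67, 6.98 and 6.92. The groups again did not overlap, and the difference was -0.97 (SE 0.131), or 1.96-fold. The stiff arrays C and D were the higher pair at both probe sets. Measured from the stiff A and B arrays only, IL11 differed by -1.0025 and -0.775 at the probe sets in the order above, and from the stiff C and D arrays only by -1.24 and -1.165.

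IL6, the founding ligand of the family, had 1 probe set. It stood at 6.81, 6.87, 7.09 and 7.07 on stiff A to D and at 7.35, 7.15, 7.18 and 7.31 on soft A to D. All soft arrays lay above all stiff arrays, the closest being soft B and stiff C. IL6 differed by 0.29 (SE 0.0823, 95% confidence interval 0.107 to 0.468), not past the threshold. From the stiff A and B arrays only the difference was 0.41, past the threshold, and from the stiff C and D arrays only 0.17.

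LIF, which signals through LIFR and gp130, also had 1 probe set. Stiff A to D read 8.63, 8.58, 8.93 and 8.99, and soft A to D 9.0, 8.93, 8.87 and 9.06. The groups overlapped, since stiff C and D lay among the soft arrays. The difference of 0.18 (SE 0.0977, 95% confidence interval -0.0321 to 0.397) was not past the threshold. It was 0.36 from the stiff A and B arrays only, past the threshold, and 0.005 from the stiff C and D arrays only.

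**Figure D1:**
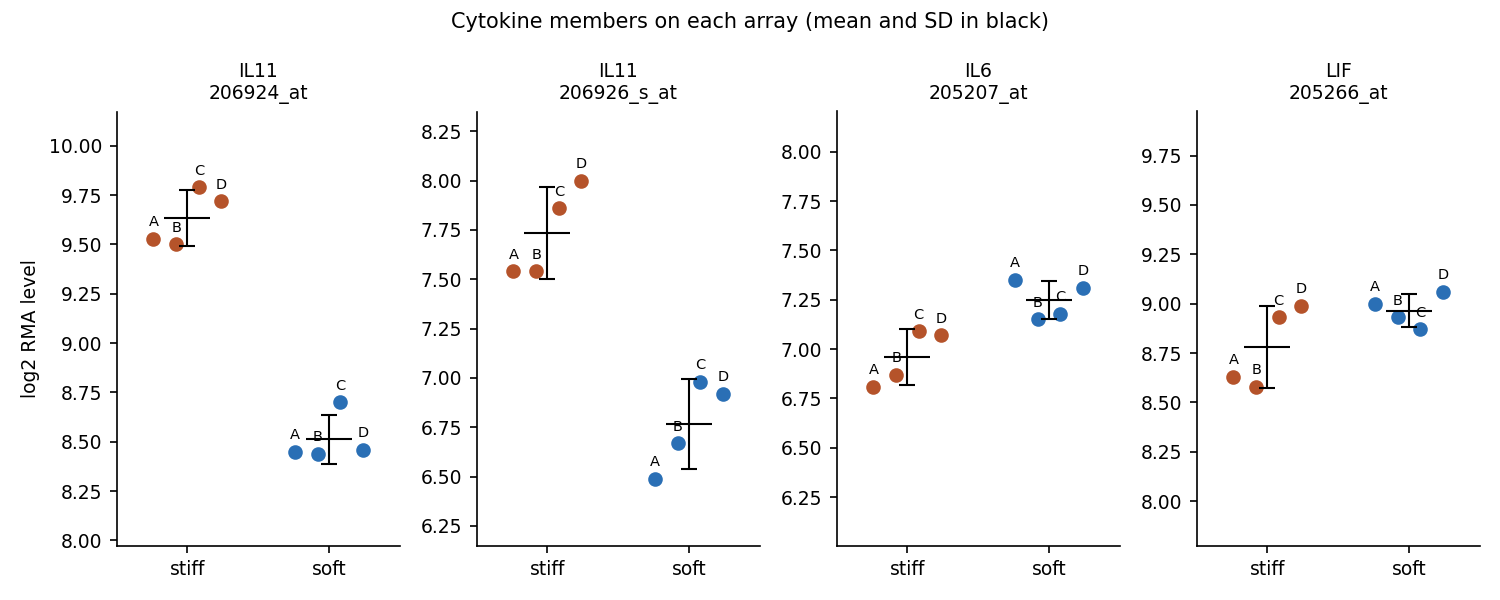
Log2 RMA level (vertical axis, each panel spanning the same range) of the 4 cytokine probe sets on stiff (orange) and soft (blue) arrays, lettered by replicate, with the mean and SD in black. Soft arrays lie below all stiff arrays for IL11 at both probe sets, above them for IL6, and among stiff C and D for LIF.

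The ligands shared the position of the stiff arrays: IL11, IL6 and LIF were each lower on stiff A and B than on stiff C and D, by 0.24, 0.24 and 0.355 between the means of the pairs. SOCS3 lay the other way at its probe set with the highest mean, where stiff C and D minus stiff A and B was -0.255. Both stiff A and B lay below both stiff C and D for 4 of the 9 members and above them for 3, where 22.1% and 27.8% of all genes did so. Among genes above background, as these members were, the shares were 29.7% and 30.5%. This order was noticed in the data and was not tested.

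IL6ST encodes gp130, the chain that IL11, IL6 and LIF share. It had 7 probe sets, of which 4 were above background, and all 7 differences were above 0, from 0.125 to 0.58. At 211000_s_at stiff A to D stood at 8.77, 8.47, 8.53 and 8.35, and soft A to D at 9.01, 8.96, 9.29 and 9.18. The groups did not overlap, and the difference was 0.58 (SE 0.101), or 1.49-fold. At 204863_s_at stiff A to D stood at 8.78, 8.59, 8.74 and 8.40, and soft A to D at 8.89, 8.93, 9.18 and 9.35. These groups did not overlap either, and the difference was 0.46 (SE 0.115). The one with the highest mean, 212195_at, read 12.73 to 12.88 on stiff and 12.80 to 13.00 on soft, an overlap, and differed by 0.135 (SE 0.067). A further one, 212196_at, differed by 0.17 (SE 0.0735). So of the 4 probe sets of IL6ST above background 2 were past the threshold and 2 were not. Both that passed carry the _s_ mark of probe sets sharing probes, and 212195_at and 212196_at do not. Which transcripts each reads is not stated in the annotation used here. The call at 204863_s_at was lost without stiff B (difference 0.4475), stiff D (0.384), soft C (0.429) or soft D (0.3725), and when either pair served as the stiff arrays (0.40 from A and B, 0.52 from C and D). The call at 211000_s_at was lost when only A and B did (0.49). The mean of all 7 probe sets differed by 0.25 and was past the threshold.

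IL11RA, the receptor chain specific to IL11, had 2 probe sets. At 204773_at it stood at 6.93, 6.86, 6.91 and 6.99 on stiff A to D and at 7.34, 7.26, 7.12 and 7.30 on soft A to D. Every soft array lay above every stiff array, and the difference was 0.33 (SE 0.0667), past the threshold. The other one, 1552646_at, lay under background on all arrays and differed by 0.03 (SE 0.0914). From the stiff A and B arrays only the 204773_at difference was 0.36, and from the stiff C and D arrays only 0.305, neither past the threshold with these fewer arrays. The mean of both probe sets differed by 0.18, also not past it.

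LIFR, the signalling chain for LIF, had 5 probe sets, 4 of them above background, and differed by 0 to 0.045, none past the threshold. At 225575_at stiff arrays read 9.63 to 9.67 and soft arrays 9.58 to 9.79. The interval of that difference, -0.100 to 0.175, leaves room for a small change either way. Soft A was the lowest of the 8 arrays at each of these 4 probe sets. OSMR, the chain that oncostatin M and interleukin 31 use, differed by 0.0125 to 0.12 at its 3 probe sets, none past the threshold. At 226621_at its stiff arrays lay at 10.34 to 10.37 and its soft arrays at 10.43 to 10.57, with no overlap but a difference of only 0.12 (SE 0.0589).

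STAT3 had 4 probe sets, 3 above background. At 208991_at stiff arrays read 10.46 to 10.54 and soft arrays 10.35 to 10.55, a difference of -0.015 (SE 0.064, 95% confidence interval -0.156 to 0.126). The other probe sets differed by -0.0225 to 0.12, none past the threshold. SOCS3, a direct STAT3 target that inhibits gp130 signalling, had 4 probe sets, 2 above background. At 227697_at stiff A to D stood at 8.97, 8.93, 8.66 and 8.73, and soft A to D at 8.59, 8.71, 8.87 and 8.92. The groups overlapped fully, with a difference of -0.05 (SE 0.0947, 95% confidence interval -0.258 to 0.158). Its other probe sets differed by -0.10 to 0.14, none past the threshold.

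**Figure D2:**
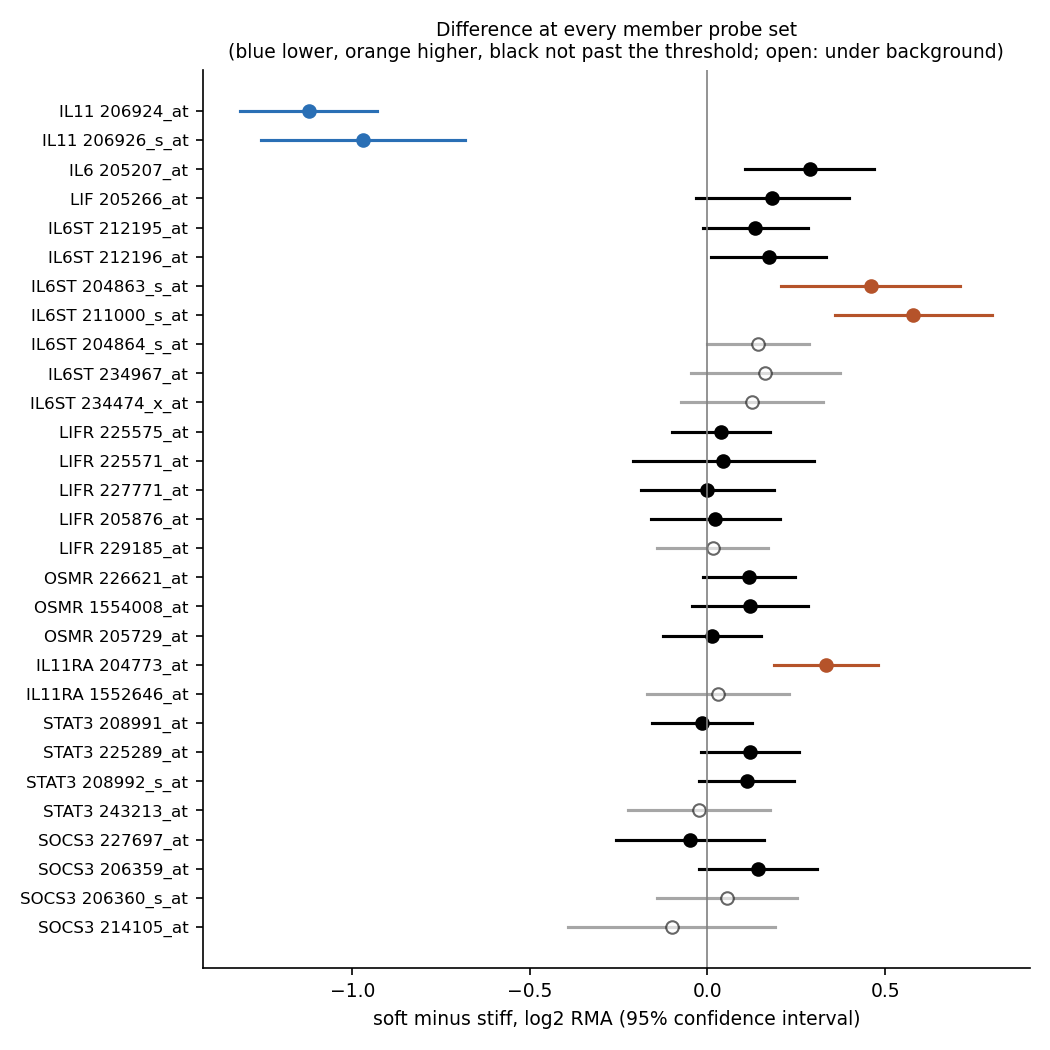
Soft minus stiff difference (log2 RMA) with its 95% confidence interval for all 29 member probe sets, grouped by gene. Both IL11 probe sets lie near -1, 2 of IL6ST and 1 of IL11RA lie above 0 past the threshold, and the intervals of LIFR, OSMR, STAT3 and SOCS3 all include 0.

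**Figure D3:**
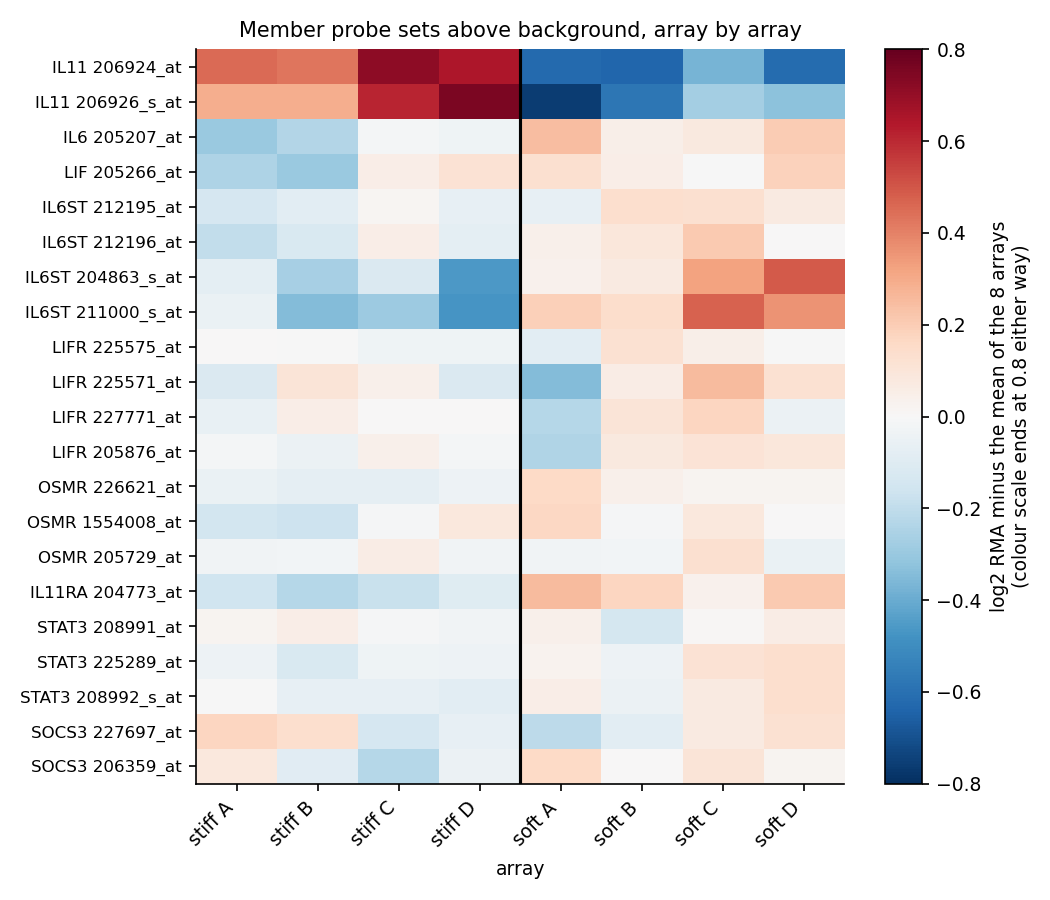
Log2 RMA value of each of the 21 member probe sets above background on each array, minus its own mean over the 8 arrays (red above, blue below). IL11 splits the substrates in the opposite direction to IL6, IL6ST and IL11RA, and stiff A and B are the lowest arrays for IL6 and LIF.

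Other genes of the pathway were taken from lists of its known parts. The lists were drawn up with earlier results of these data known and serve as a description. Of 91 list genes measured of 97 listed, 9 were lower, where 5.93% of all genes were, 6 were higher, where 4.39% were, and 76 were not past the threshold. Their median difference was 0.015, beside 0.0075 for all genes. The lists below are to be read against the same shares. These shares cover all 19775 genes, of which 11566 were above background, as were 76 of the 91 list genes. Shares among genes above background alone were not computed, so the list counts cannot be called an excess. The limma adjusted p-values given for these genes are over all probe sets.

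None of the 5 other ligands of the family measured passed the threshold, with differences of -0.04 to 0.11 and a median of 0.055. Of them IL27 (6.40 on stiff, 6.51 on soft) and OSM, oncostatin M (6.215 and 6.27), lay just above the background level of 6.188. Both stood below the silent gene SFTPC, so their expression is not shown. IL27 differed by 0.11 (SE 0.0759, adjusted p = 0.453) and OSM by 0.055 (SE 0.126, adjusted p = 0.85). Among 4 other receptors IL31RA, the partner of OSMR in the interleukin 31 receptor, was higher and 3 were not past the threshold (median 0.01). IL31RA read 8.90, 8.91, 9.09 and 9.21 on stiff A to D and 9.57, 9.42, 9.36 and 9.35 on soft A to D, without overlap, and rose by 0.40 (SE 0.085, adjusted p = 0.0154). Its other probe sets were under background. The call was lost without stiff B (0.36, adjusted p = 0.0515) with only C and D as stiff arrays (0.275, adjusted p = 0.131) and by averaging its probe sets (0.22, adjusted p = 0.138).

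None of 11 kinases, STATs and adaptors passed the threshold, JAK1, JAK2 and TYK2 among them, with differences of -0.21 to 0.25 and a median of 0.04. PTPN11, the phosphatase SHP2 that links gp130 to MAP kinases, differed by -0.165 (SE 0.0645, adjusted p = 0.147, and 0.0254 with a trended and robust variance) and the adaptor SHC1 by 0.09 (SE 0.0579, adjusted p = 0.388). Of 15 inhibitors, phosphatases and shedding proteases 2 were lower, 1 higher and 12 not past the threshold, with a median of -0.08. SOCS2, a relative of SOCS3 known as a brake on growth hormone signalling, read 9.85, 9.76, 9.67 and 9.72 on stiff A to D and 8.98, 9.15, 9.35 and 9.08 on soft A to D. It fell by 0.61 (SE 0.0831, adjusted p = 0.00174), and its other probe set above background fell by 0.655 (SE 0.1). PTPN2, a phosphatase that acts on Janus kinases and STATs, fell by 0.24 (SE 0.0553, adjusted p = 0.0205), and PIAS3, an inhibitor of STAT3, rose by 0.365 (SE 0.0859, adjusted p = 0.0235). That of PTPN2 was lost without stiff B, C or D or soft B or D (differences -0.25 to -0.23, adjusted p = 0.0507 to 0.0561) and with only A and B (-0.23, adjusted p = 0.121) or only C and D (-0.26, adjusted p = 0.0871) as stiff arrays. That of PIAS3 was lost without stiff C or D or soft C or D (0.30 to 0.35, adjusted p = 0.0512 to 0.0687), and with only A and B as stiff arrays (0.22, adjusted p = 0.166). With all arrays PTPN2 also fell at 204935_at, without overlap, by 0.76 (adjusted p = 0.0203). At 213137_s_at it differed by -0.16 (adjusted p = 0.172), not past the threshold.

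Of 30 genes known to respond to STAT3, 2 were lower, 2 higher and 26 not past the threshold, with a median of 0.049. TIMP1, an inhibitor of matrix proteases, read 11.78, 11.70, 11.96 and 12.15 on stiff A to D and 12.82, 12.81, 12.64 and 12.76 on soft A to D, and rose by 0.86 (SE 0.0956, adjusted p = 0.000623). BCL6, a transcriptional repressor, rose by 0.24 (SE 0.0622, adjusted p = 0.0366) and at another probe set by 0.51 (SE 0.0772). GADD45B, a stress-response gene, fell by 0.365 (SE 0.0738, adjusted p = 0.012; at its probe set without shared probes the difference was -0.11, and with only A and B as stiff arrays -0.32, neither past the threshold), and BIRC5, survivin, a mitotic protein that blocks cell death, by 0.38 (SE 0.0961, adjusted p = 0.0309). The BCL6 call was lost without any 1 array except stiff D (differences 0.20 to 0.25, adjusted p = 0.0564 to 0.11) and with only A and B (0.30, adjusted p = 0.0503) or only C and D (0.17, adjusted p = 0.225) as stiff arrays. The BIRC5 call was lost without stiff A or B or soft A or B (-0.365 to -0.32, adjusted p = 0.077 to 0.0917) and with only C and D as stiff arrays (-0.22, adjusted p = 0.216). BIRC5 was also past the threshold with all arrays at 1555826_at (-0.50, adjusted p = 0.00295) and 202094_at (-0.42, adjusted p = 0.0255). It was not past it at 210334_x_at (-0.265, adjusted p = 0.0929). The acute-phase genes of this list, such as FGA, FGB, CRP and HAMP, were under background.

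Regulators of IL11 and IL6 transcription include AP-1 and NF-kB subunits and the TGF-beta pathway. Of 19 measured 1 was lower, 2 higher and 16 not past the threshold, with a median of 0.0225. TGFB2, a TGF-beta ligand, fell by 0.645 (SE 0.0764, adjusted p = 0.000837), and the AP-1 subunit JUND rose by 0.34 (SE 0.0691, adjusted p = 0.0126). The call of JUND was lost when either pair served as the stiff arrays (0.35 from A and B, adjusted p = 0.0616, and 0.32 from C and D, adjusted p = 0.0681). SP1, a general activator, rose by 0.31 (SE 0.0759, adjusted p = 0.0289), a call lost without any 1 array except soft B or soft C (differences 0.24 to 0.31, adjusted p = 0.0546 to 0.0722), and with only A and B (0.31, adjusted p = 0.13) or only C and D (0.30, adjusted p = 0.142) as stiff arrays. The mean of all SP1 probe sets differed by 0.17 (adjusted p = 0.0424). At another SP1 probe set above background the difference was 0.09 (SE 0.0686, adjusted p = 0.48). The AP-1 subunits FOSL1, FOSL2 and JUN differed by -0.05 (SE 0.0707), 0.02 (SE 0.113) and 0.02 (SE 0.0666), none past the threshold. FOS differed by 0.31 with a wide error (SE 0.285). It read 6.77, 6.77, 8.04 and 8.13 on stiff A to D and 7.79, 7.79, 7.65 and 7.72 on soft A to D. All its soft arrays thus lay above stiff A and B and below stiff C and D. The same order held for FOSB, at 6.09, 6.07, 6.84 and 6.90 on stiff A to D and 6.20 to 6.64 on soft.

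IL11 also belongs to a group of genes known to be raised in sublines of MDA-MB-231 that metastasise to bone. Of 7 others of this group, all measured, 4 were lower and none was higher, beside 5.93% and 4.39% of all genes, with a median of -0.46. CXCR4, a chemokine receptor, fell by 1.015 (SE 0.163, adjusted p = 0.00399), follistatin (FST), which binds activins, by 0.72 (SE 0.125, adjusted p = 0.00588) and CCN2, a matricellular protein, by 0.575 (SE 0.0734, adjusted p = 0.00125). FST read 11.41, 11.51, 11.84 and 11.84 on stiff A to D and 11.12, 10.70, 11.10 and 10.79 on soft A to D. Its other probe sets fell by 0.97 and 0.95, and the call at the one with the highest mean was lost with only A and B as stiff arrays (-0.53, adjusted p = 0.054). The growth factor FGF5 was the fourth, at -0.46 (SE 0.0912, adjusted p = 0.0112), named after its values were seen. It was not past the threshold with only C and D as stiff arrays (-0.37, adjusted p = 0.0946) or at its probe set without shared probes (-0.145, adjusted p = 0.283). ADAMTS1, MMP1 and SPP1 differed by -0.28 (SE 0.206), -0.14 (SE 0.109) and 0.03 (SE 0.0833). ADAMTS1 read 11.25, 11.29, 12.30 and 12.06 on stiff A to D, with the soft arrays between these pairs at 11.32 to 11.54. This list shows results of these data that were known when it was drawn up.

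**Figure D4:**
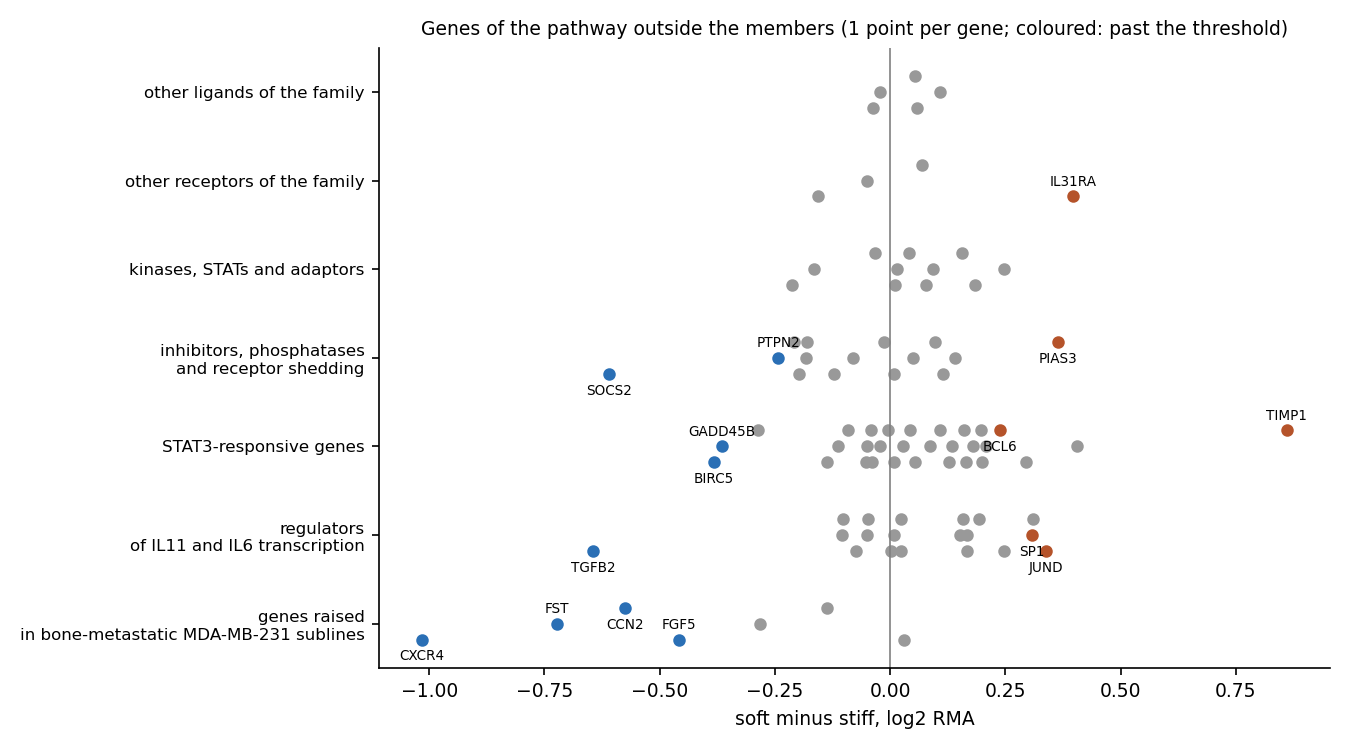
Soft minus stiff difference (log2 RMA) of 91 pathway genes outside the set, 1 point per gene in 7 lists, spread vertically for legibility only. Coloured and named points are past the threshold, 9 lower (blue) and 6 higher (orange); 4 of the lower ones are in the bone metastasis list.

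The profiles most like that of IL11 over the 8 arrays were sought by the root mean square difference of log2 values, each centred on its own mean, among 11565 genes above background. The 5 closest were PDE1C, a cyclic nucleotide phosphodiesterase, at 0.0994, RGS7, a regulator of G-protein signalling, at 0.105, CYP24A1, which breaks down vitamin D, at 0.109, KISS1, which encodes kisspeptins, at 0.132, and the matrix protein MATN2, matrilin 2, at 0.188. The IL11 probe sets 206924_at and 206926_s_at differed from each other by 0.15 on the same measure, so 4 genes lay closer to the first than its own second probe set did. Any gene that differs between the substrates by a like amount is close on this measure. MATN2 read 8.84, 8.97, 9.13 and 8.91 on stiff A to D and 7.97, 8.03, 8.46 and 8.18 on soft A to D. Soft C was the highest soft array for IL11 at both probe sets and for each of the 5 genes. These genes were chosen for likeness over all 8 arrays, soft C included, so this is partly built in. Soft C also lay nearest the stiff arrays on the first principal component over all probe sets. It stood at 9.4 there, against 17.8 to 35.3 for the other soft arrays, so this order is not particular to these genes.

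**Figure D5:**
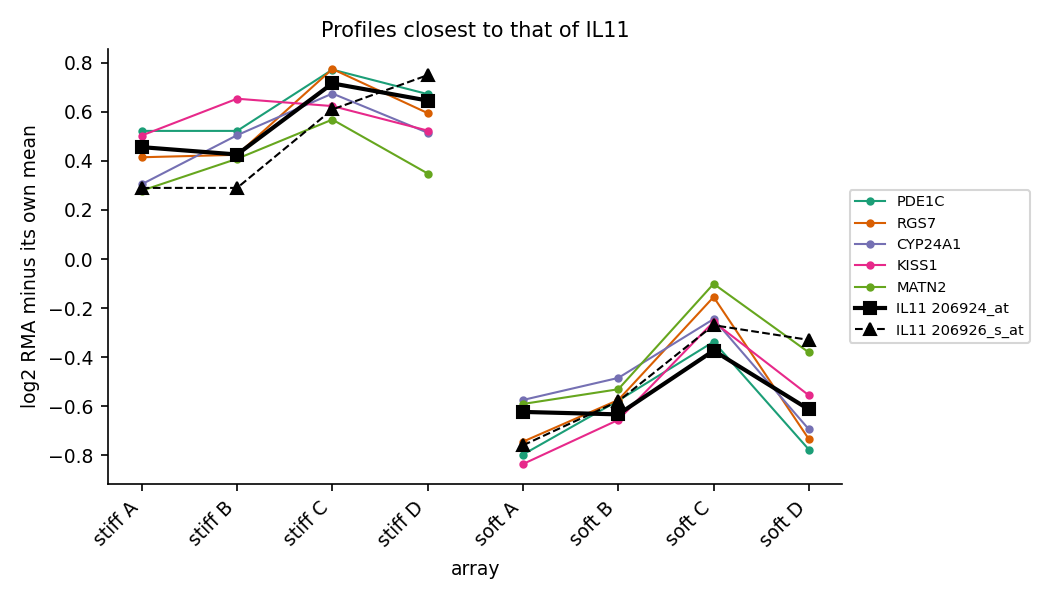
Log2 RMA values minus their own mean on each array for both IL11 probe sets (black) and the 5 genes with the closest profiles; lines join the points of 1 gene within a substrate and imply no order. All 7 profiles drop from stiff to soft, and soft C is the highest soft array in each. The 5 genes were chosen for likeness over all 8 arrays, soft C included.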

How the data were processed

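The authors deposited 1 log2 value for each probe set on each array, computed with RMA per the submitters' processing notes; the log2 scale was read from the values. RMA equalises arrays, so it removes shifts common to all genes and compresses dim differences. The software version is not given in the sources used here. Of 54675 rows 62 manufacturer controls were left out. Platform symbols were updated by gene identifier against RefSeq: 41091 probe sets had 1 symbol, 1801 several and 11721 none. Each gene was read by its probe set with the highest mean.

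Soft and stiff were compared with limma 3.58.1 in R 4.3.3 (lmFit and eBayes, no trend, all 8 arrays), with Benjamini-Hochberg adjustment over 54613 probe sets and a threshold of 0.05, two-sided. The number of arrays limits the precision. Background was the 95th percentile over 24 probe sets of 15 genes measured of 19 listed as silent. The procedure was tested on simulated data, where it recovered 58% of 100 planted differences of 0.5 and 97% of 100 of size 1. It made 7 false calls over 54613 probe sets. A difference of 0.5 was thus often missed.

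Named were all members, up to 3 genes per list and direction past the threshold (the 2 highest where none passed) and the 5 profiles most like IL11; genes outside this rule are named as examples or as markers. The members and lists were chosen with earlier results of these data known. Of the list genes 6 were not analysed here. Alternatives were a replicate block, other scalings, array weights, a trended and robust variance, leaving out dim probe sets, fewer arrays, other readings per gene and a threshold of 0.01.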

Additional observations from a re-analysis of the deposited data

Results flagged for a closer look

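In 9 of 104 groups of 4 arrays 1 array stood apart from the other 3 by Dixon's criterion at the 95% level, which chance gives in about 1 of 20 groups. For IL11 soft C read 8.70 at 206924_at against 8.44 to 8.46 on the other soft arrays, still below every stiff array. Soft A was apart for LIFR at 205876_at (6.97 against 7.29 to 7.32) and for OSMR at 226621_at (10.57 against 10.43 to 10.45). OSMR at 205729_at had stiff C at 7.49 (others 7.40 to 7.41) and soft C at 7.56 (others 7.38 to 7.41). Stiff B was apart for STAT3 at 225289_at (9.44 against 9.52 to 9.53), and soft D for GADD45B (9.10 against 8.88 to 8.89). At IL6ST probe sets under background stiff B read 3.57 at 234967_at and soft B 3.34 at 234474_x_at.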

How the results depend on the processing

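IL11, chosen on this contrast, differed by -1.24 to -1.0025 over 20 alternatives and was the 1 member called lower in each. The number of members called higher, 1 with all arrays (IL11RA), was 2 with cyclic loess, above background, above the median level, with the trended and robust variance, with only A and B as stiff arrays and by averaging a gene's probe sets, and 0 with only C and D as stiff arrays and at adjusted p under 0.01. The 2 were IL11RA and IL6, except that they were IL6 and LIF with only A and B, and IL6 and IL6ST by averaging, where IL11RA was lost. IL6 passed the threshold in 6 of 20 alternatives, with differences of 0.17 to 0.41 over all of them. The 9 list genes called lower became 5 at adjusted p under 0.01, 6 with only A and B as stiff arrays and 7 to 10 without 1 array. They became 12 above background and above the median level, and 11 with the trended and robust variance. The 6 called higher became 12 above background, 11 above the median level, 10 with the trended and robust variance and by averaging probe sets, 3 with only C and D as stiff arrays and 1 at adjusted p under 0.01, and 3 to 5 without 1 array. Genes not past the threshold changed sign as follows. STAT3 was 0.00016 after repeated quantile normalization, 0.013 with cyclic loess, 0.0125 with only C and D as stiff arrays, 0.048 with the mean of its probe sets and -0.0375 to 0.029 without 1 array. SOCS3 was 0.0775 with only C and D as stiff arrays, 0.012 with the mean and -0.10 to 0.011 without 1 array. OSM was -0.085 with only A and B as stiff arrays and -0.035 to 0.155 without 1 array. The cause was not tested.

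The labels do not say whether the letters A to D pair the arrays. Deviations of same-lettered arrays correlated at -0.118 to 0.122, and those of unlike letters at -0.17 to 0.207. With so few arrays this cannot decide whether they are paired. At the IL11 probe set 206926_s_at the SE was 0.131 without and 0.0705 with the letters as a replicate block. With the replicate block 3937 probe sets were called instead of 5061, 1 member lower and 1 higher, and 8 list genes lower and 4 higher. The calls of PTPN2, PIAS3, BIRC5, BCL6 and the IL6ST probe set 204863_s_at were not past the threshold under it.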

Other observations

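PTPN11 was past the threshold at a probe set other than the one with its highest mean. It differed by -0.545 (SE 0.122, limma adjusted p = 0.0189) at 205868_s_at, where stiff A to D read 6.57, 6.6, 6.37 and 6.34 and soft A to D 5.54, 5.97, 6.03 and 6.16, close to background, and all soft arrays lay below all stiff ones. At the 3 PTPN11 probe sets with higher means the differences were -0.165, -0.22 and -0.25, none past the threshold. These values were picked after they were seen.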
